A study of Macaca mulatta with 24 samples.

Results

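Plasma cells are the antibody-secreting end stage of the B cell lineage. Of the 9 genes chosen as their markers by gene symbol, 8 had a probe on the array (13 probes of 36108 tested, or 8 genes of 14276): JCHAIN (listed as IGJ), MZB1, DERL3, XBP1, TNFRSF17, SDC1, PRDM1 and IRF4. POU2AF1, a B cell coactivator, had no probe with its symbol and was not analysed here. DERL3 had 5 probes, XBP1 had 2 and each other gene had 1. All 13 probes were tested, so no gene was lost to the filter on dim probes. A gene with several probes is given by the brightest, and the others are named beside it.

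In the intestinal mucosa, plasma cells of the lamina propria mostly make dimeric IgA, which the J chain joins and the epithelium carries into the lumen. PRDM1 (Blimp-1) and IRF4 are transcription factors that direct the step from B cell to plasma cell, and XBP1 enlarges the endoplasmic reticulum for secretion. MZB1 and DERL3 work in that compartment on the folding and the disposal of secreted proteins. TNFRSF17 (BCMA) is a survival receptor for the cytokines BAFF and APRIL, and SDC1 (CD138) is the surface proteoglycan by which plasma cells are often sorted. Several of these genes are not particular to plasma cells: epithelial cells also express SDC1, XBP1 and PRDM1, and activated T cells also express PRDM1 and IRF4.

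The samples were whole segments of ileum from 24 young-adult male rhesus macaques, 1 array for each animal. The 4 controls were sham-irradiated and are labelled day 4. The other 20 had received a single total-body dose (TBI) of gamma rays from cobalt-60: 6.7 Gy, sampled on day 4 (n = 4), day 7 (n = 4) or day 12 (n = 2), or 7.4 Gy, sampled on day 4 (n = 4), day 7 (n = 4) or day 12 (n = 2). The comparisons ask how mRNA levels in the ileum differ from control at each dose and day, and since the same controls served for every day, the 6 comparisons share them. In whole tissue, fewer plasma cells and less RNA in each plasma cell cannot be told apart. Levels are log2 signals with the 75th percentile of the same array set to 0, a change is the difference between mean levels, and levels of different genes are not comparable with each other.

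On each array 72.7% to 88.1% of probes were well above background and no spot was saturated. A list of 5 ileal genes, for bile acid transport and other work of enterocytes, summed to 8.89 to 9.27 in the controls, on the log2 scale. Among the irradiated animals, replicate 4 of the 6.7 Gy day 4 group stood apart at 7.29, and the others were at 8.64 to 9.53. Without that animal the median change of the 8 plasma cell genes on day 4 after 6.7 Gy was -0.79, against -0.67 with it. One control stood apart for the plasma cell genes: replicate 4 had the highest level of all 24 animals in MZB1, DERL3, XBP1, TNFRSF17 and IRF4. Taken as the median over the 8 genes against the mean of the controls, control replicate 4 was at 0.99, against -0.74, -0.43 and -0.04 in the other 3. At the other end, replicate 4 of the 7.4 Gy day 7 group was at -2.33, the lowest of all animals. For the 8 genes, changes from control are therefore also given without control replicate 4, and on day 7 after 7.4 Gy without both animals.

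All 8 genes were lower than in the controls on average on day 7, at both doses, and 7 of 8 were lower on average on days 4 and 12. The median change was -0.67 and -0.91 on day 4 (6.7 and 7.4 Gy), -0.84 and -1.41 on day 7, and -0.91 and -0.75 on day 12. Over all genes tested, the median change was between -0.07 and 0.05 in the 6 comparisons. Of them, 57.9%, 55.6%, 49.7%, 52.7%, 43.6% and 52.4% were below 0, in the same order. Few single genes passed the test, however, which was limma's moderated test with Benjamini-Hochberg adjustment over all tested probes and a fold change of at least 2. On day 7 after 7.4 Gy, 2 of 8 genes were called lower, TNFRSF17 and PRDM1. In the other 5 comparisons with control, 0 of 8 were called lower, and 0 of 8 were called higher in all 6. Of all 36108 probes, 0.382% and 0.734% were called lower on day 4 (6.7 and 7.4 Gy), 0.183% and 0.454% on day 7, and 0.0748% and 0.0249% on day 12. The probes called higher made up 0.595%, 1.6%, 0.0526%, 0.114%, 0.0332% and 0.0194% in the same order. Counted by limma's p before adjustment (under 0.05) and at least 2-fold, 3, 3, 3, 6, 3 and 1 of the 8 genes were lower, where 1.62%, 1.4%, 0.881%, 1.75%, 0.919% and 1.18% of all probes were. The unmoderated test named in the study's methods called 0 of 8 in each of the 6 comparisons after adjustment. Without control replicate 4, and likewise without it and replicate 4 of the 7.4 Gy day 7 group, 0 of 8 were called in any comparison with control. With both left out, the median change was -0.54, -0.62, -0.66, -0.80, -0.59 and -0.42 in the order above.

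**Figure D1:**
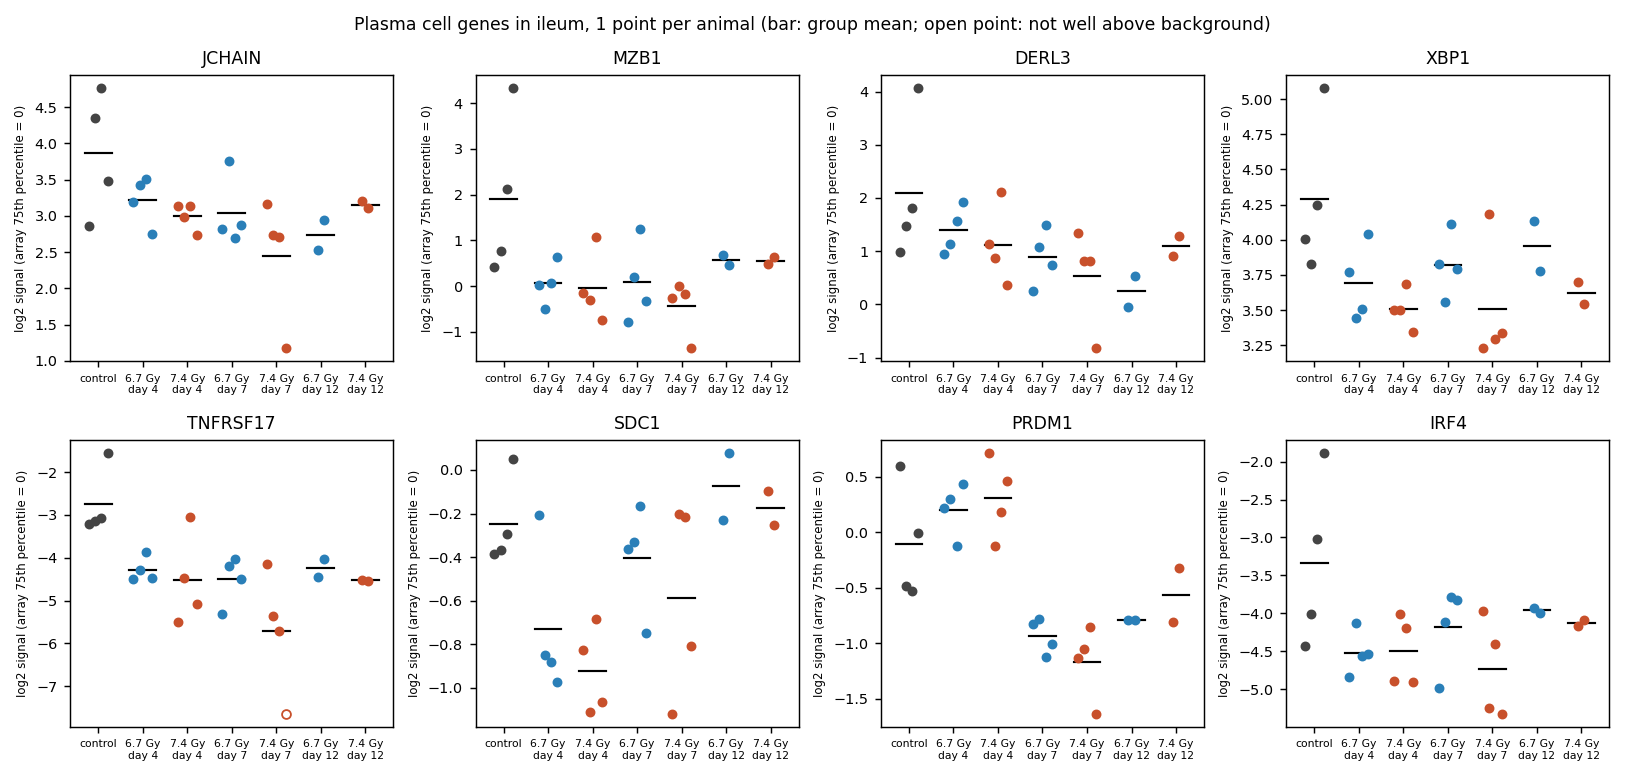
Level of each plasma cell gene in every animal (y axis: log2 signal, 75th percentile of the array set to 0; x axis: group; grey: control, blue: 6.7 Gy, red: 7.4 Gy; bars: group means; open point: not well above background). In MZB1, DERL3, XBP1 and TNFRSF17 1 control, replicate 4, lies far above the other controls, whereas the 8 day 7 animals lie below all controls in PRDM1.

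TNFRSF17, the survival receptor, showed the larger of the 2 called changes from control. Its level was -3.22, -3.15, -3.07 and -1.55 in the 4 controls, and -4.15, -5.36, -5.71 and -7.64 on day 7 after 7.4 Gy. All 4 irradiated animals lay below all 4 controls. The change was -2.97 (SE 0.58, 95% interval -4.17 to -1.76, n = 4 and 4, limma adjusted p = 0.012). The value of -7.64 was not well above background. With that animal raised to the dimmest measurable signal of its own array, the change would be -2.62, and with normexp background correction of all arrays it was -1.21 (limma adjusted p = 0.033), so its size depends on how dim signals are treated. Without control replicate 4 the change was -2.57 (limma adjusted p = 0.051), without replicate 4 of the irradiated group -2.32 (limma adjusted p = 0.041), and without both -1.93 (limma adjusted p = 0.124).

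The receptor gene was lower in the other groups by amounts that did not pass. On day 4 after 6.7 Gy the levels were -4.51, -4.28, -3.86 and -4.48, all below the controls, with a change of -1.53 (SE 0.58, limma adjusted p = 0.131). On day 4 after 7.4 Gy they were -5.51, -4.48, -3.04 and -5.08, and replicate 3 lay within the range of the controls. The change there was -1.78 (limma adjusted p = 0.067), and it passed without that animal (-2.28, limma adjusted p = 0.033). With normexp background correction it was -0.99 (limma adjusted p = 0.028), just under 2-fold. On day 7 after 6.7 Gy they were -5.32, -4.19, -4.02 and -4.49, all below the controls, with a change of -1.76 (limma adjusted p = 0.257). The day 12 animals, at -4.44 and -4.03 after 6.7 Gy and -4.52 and -4.54 after 7.4 Gy, were also all below the controls. Of 20 irradiated animals, then, replicate 3 of the 7.4 Gy day 4 group was the only one not below every control. These changes were smaller without control replicate 4, at -1.13 and -1.38 on day 4, -1.36 on day 7 after 6.7 Gy, and -1.09 and -1.38 on day 12.

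PRDM1, the transcription factor Blimp-1, differed from the other members in its course. Its level was 0.60, -0.48, -0.53 and -0.00 in the controls. On day 4 it was 0.21, 0.30, -0.13 and 0.43 after 6.7 Gy and 0.72, -0.12, 0.19 and 0.47 after 7.4 Gy, overlapping the controls (changes 0.31 and 0.41, limma adjusted p = 0.417 and 0.286). On day 7 it was -0.83, -0.78, -1.12 and -1.01 after 6.7 Gy and -1.13, -1.05, -0.85 and -1.63 after 7.4 Gy. All 8 of these animals lay below all controls and below all 8 day 4 animals. The change from control was -0.83 after 6.7 Gy (SE 0.23, limma adjusted p = 0.143) and -1.06 after 7.4 Gy (SE 0.23, limma adjusted p = 0.026). On day 12 the levels were -0.79 and -0.80 after 6.7 Gy and -0.81 and -0.32 after 7.4 Gy, of which the last lay within the control range.

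The fall of PRDM1 from day 4 to day 7 did not rest on the controls. Averaged over the 2 doses, the difference between day 7 and day 4 was -1.31 (SE 0.16, 95% interval -1.65 to -0.97, 8 animals against 8, limma adjusted p = 8.4e-05), a 2.48-fold lower level. It was 1 of 8 members called between these days, against 1.06% of all probes in either direction. Between the same days the median difference was -0.28 over 9 T cell genes (7 below 0), 0.31 over 12 epithelial genes (2 below 0) and -0.51 over 9 myeloid and dendritic cell genes (8 below 0), and the part of these cells in the PRDM1 values was not tested. The call stood in all 20 alternatives run for this difference (quantile normalization, the slide or the replicate number as a block, and animals left out), in which it ran from -1.38 to -1.23. No day 7 array shared its place on the slide with a day 4 array. Day and place therefore cannot be told apart in this difference, and no alternative addressed place. Between day 12 and day 4 PRDM1 differed by -0.94 (SE 0.20, limma adjusted p = 0.0048), just under 2-fold, and it passed without replicate 2 of 7.4 Gy day 4 (-1.01) or replicate 2 of 7.4 Gy day 12 (-1.06). The call on day 7 after 7.4 Gy against control was less steady: it stood in 10 of its own 20 alternatives, a set that also held another background correction, other filters and other tests, and was lost without control replicate 1 (change -0.83, limma adjusted p = 0.097), without control replicate 4 (-1.03, 0.070), and without replicate 1 (-1.08, 0.057), replicate 2 (-1.10, 0.052) or replicate 4 (-0.91, 0.116) of the irradiated group. With both animals that stood apart left out it was -0.87 (limma adjusted p = 0.217). In the other groups, the changes in PRDM1 without control replicate 4 were 0.34 and 0.45 on day 4, -0.80 on day 7 after 6.7 Gy, and -0.66 and -0.43 on day 12.

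IRF4, the partner factor of PRDM1 in plasma cell differentiation, did not follow that course. Its controls ranged from -4.43 to -1.88, and its animals on day 4 after 7.4 Gy ranged from -4.90 to -4.00. The changes on day 4 were -1.18 and -1.16 (SE 0.43, limma adjusted p = 0.118 and 0.102), those on day 7 were -0.84 and -1.40 (limma adjusted p = 0.564 and 0.138), and those on day 12 were -0.62 and -0.79. With normexp background correction the changes after 7.4 Gy were smaller, at -0.77 on day 4 and -0.72 on day 7 (limma adjusted p = 0.074 and 0.230). Every group overlapped the controls. The difference between days 7 and 4 was 0.05 (95% interval -0.58 to 0.68). All 6 changes in IRF4 shrank when control replicate 4 was left out. They were then -0.70 and -0.67 on day 4, -0.36 and -0.92 on day 7, and -0.14 and -0.31 on day 12, and without both animals named above the change on day 7 after 7.4 Gy was -0.72 (limma adjusted p = 0.551).

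The genes of the secretory apparatus had lower means in every group but wide spreads among the controls. MZB1, an endoplasmic reticulum protein that aids assembly of immunoglobulin, was at 0.42, 0.77, 2.12 and 4.34 in the controls. On day 7 after 7.4 Gy it was at -0.26, 0.01, -0.17 and -1.36, all below the controls, with a change of -2.36 (SE 0.63, 95% interval -3.66 to -1.05, limma adjusted p = 0.079). That change was -1.55 without control replicate 4 (limma adjusted p = 0.171), and without replicate 4 of the irradiated group as well it was -1.25 (limma adjusted p = 0.401). It passed without control replicate 1 (-2.86, limma adjusted p = 0.042). On the other days and doses MZB1 changed by -1.85 and -1.95 (day 4, limma adjusted p = 0.1 and 0.066), -1.83 (6.7 Gy day 7, 0.290), and -1.34 and -1.36 (day 12, 0.634 and 0.708). The change on day 4 after 7.4 Gy passed without control replicate 1 or 2 (-2.45 and -2.33, limma adjusted p = 0.042 and 0.046). In 3 of 4 animals of both day 4 groups and of the 6.7 Gy day 7 group it lay below all controls, whereas all 4 day 12 animals, at 0.46 to 0.69, lay within the control range. The changes in MZB1 without control replicate 4 were -1.05 and -1.14 on day 4, -1.02 on day 7 after 6.7 Gy, and -0.53 and -0.56 on day 12.

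DERL3, a part of the machinery that removes misfolded proteins from the endoplasmic reticulum, was at 0.99, 1.47, 1.81 and 4.07 in the controls. Its lowest animal was again replicate 4 of 7.4 Gy day 7, at -0.82. Its changes ran from -0.70 on day 4 after 6.7 Gy to -1.84 (SE 0.67, limma adjusted p = 0.394) on day 12 after 6.7 Gy, where both animals, at -0.05 and 0.54, lay below all controls. The changes in DERL3 shrank as well when control replicate 4 was left out. They were then -0.03 and -0.30 on day 4, -0.53 and -0.89 on day 7, and -1.18 and -0.33 on day 12. On day 7 after 7.4 Gy the change in DERL3 was -1.55 with all animals (limma adjusted p = 0.208) and -0.43 without both animals that stood apart (limma adjusted p = 0.746). The other 4 DERL3 probes were lower in all 6 comparisons too, by -0.37 to -1.60, and none was called.

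XBP1, the factor of the unfolded protein response that plasma cells need for secretion, moved over a narrower range. Its controls were at 4.01, 3.83, 4.25 and 5.08, and the 4 animals on day 4 after 7.4 Gy, at 3.50, 3.50, 3.69 and 3.35, were all below them. That change was -0.78 (SE 0.24, limma adjusted p = 0.052), and the change on day 7 after 7.4 Gy was the same size (-0.78, limma adjusted p = 0.137). The latter passed without replicate 2 of that group (-1.01, limma adjusted p = 0.043). The other changes ran from -0.34 to -0.67, and the second XBP1 probe was lower by 0.47 to 0.75 in the 6 comparisons. Of the 7.4 Gy day 7 animals, 3 lay at 3.23 to 3.34 and replicate 2 at 4.18, within the control range. The changes in XBP1 without control replicate 4 were -0.34 and -0.52 on day 4, -0.20 and -0.52 on day 7, and -0.07 and -0.41 on day 12, and without both animals the change on day 7 after 7.4 Gy was -0.46 (limma adjusted p = 0.514).

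JCHAIN, the joining chain of dimeric IgA, was at 2.85, 4.35, 4.77 and 3.48 in the controls, so replicate 4, high for most other members, lay in the middle here. On day 4 it was at 3.20, 3.43, 3.51 and 2.76 after 6.7 Gy and at 3.14, 2.98, 3.14 and 2.74 after 7.4 Gy. On day 7 it was at 2.82, 3.75, 2.70 and 2.87 after 6.7 Gy and at 3.16, 2.74, 2.71 and 1.17 after 7.4 Gy. Every group overlapped the controls, of which replicate 1 was the lowest. The changes were -0.64 and -0.86 on day 4, -0.82 and -1.41 on day 7, and -1.13 and -0.71 on day 12. The largest of them, on day 7 after 7.4 Gy, had an SE of 0.39 and did not pass (limma adjusted p = 0.092). With 1 animal left out it ran from -1.75 without control replicate 1, where it passed (limma adjusted p = 0.038), to -0.99 without replicate 4 of the irradiated group (limma adjusted p = 0.273). Without that animal and control replicate 4 it was -1.12 (limma adjusted p = 0.271). Leaving out control replicate 4 made the changes in JCHAIN larger in all 6 comparisons, at -0.77 and -0.99 on day 4, -0.95 and -1.54 on day 7, and -1.26 and -0.84 on day 12.

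SDC1, the surface proteoglycan CD138, was lowest on day 4 and back at the control level by day 12. It was at -0.38, -0.37, -0.29 and 0.05 in the controls and at -0.83, -1.11, -0.68 and -1.06 on day 4 after 7.4 Gy, all below the controls (change -0.67, SE 0.20, limma adjusted p = 0.053). After 6.7 Gy on day 4, 3 animals were below all controls and replicate 1, at -0.21, was not (change -0.48, limma adjusted p = 0.173). With the place on the slide as a covariate, both day 4 changes in SDC1 were smaller, -0.28 after 6.7 Gy and -0.27 after 7.4 Gy (limma adjusted p = 0.609 and 0.761), and without control replicate 4 they were -0.38 and -0.57. The later changes in SDC1 without that control were -0.05 and -0.24 on day 7 and 0.27 and 0.18 on day 12, and without both animals that stood apart it was -0.16 on day 7 after 7.4 Gy. The difference between day 12 and day 4 was 0.70 (SE 0.18, 95% interval 0.33 to 1.07, limma adjusted p = 0.012), a 1.63-fold rise and so under the fold change asked for. The epithelium list followed the same days: its 12 genes had a median change of -0.54 and -0.57 on day 4 and of 0.04 and -0.09 on day 12, with 2 and 1 of 12 called lower on day 4 and 0 later. Its summed signal was 8.74 to 9.33 in the controls, 8.24 to 8.73 on day 4, 8.78 to 9.16 on day 7 and 8.85 to 9.06 on day 12. The part of epithelial RNA in the SDC1 values was not tested.

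**Figure D2:**
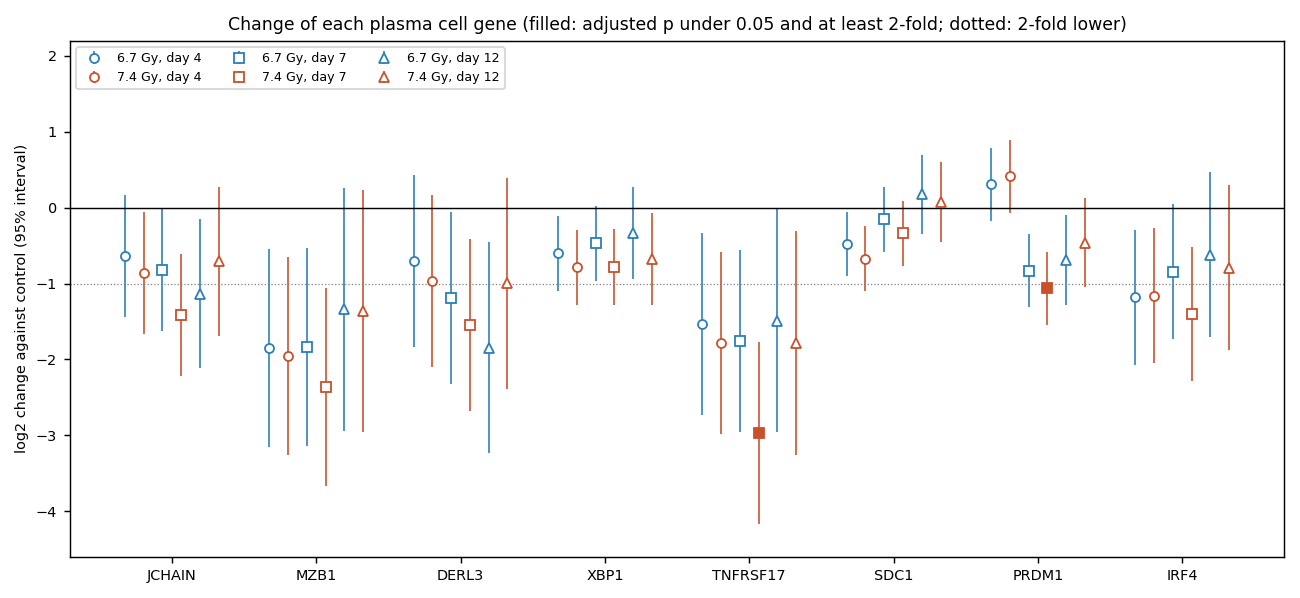
Change of each plasma cell gene against control in the 6 irradiated groups (y axis: log2 change with limma's 95% interval; circles: day 4, squares: day 7, triangles: day 12; blue: 6.7 Gy, red: 7.4 Gy; filled symbols: called). Of the 48 estimates only those of SDC1 on day 12 and of PRDM1 on day 4 lie above 0, and the 2 filled symbols are TNFRSF17 and PRDM1 on day 7 after 7.4 Gy.

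Between the doses, 0 of 8 members were called on any day by limma, where 0%, 0% and 0.00277% of all probes were called in either direction on days 4, 7 and 12. By an unadjusted p with the fold change, 0, 1 and 0 members passed, against 0.424%, 0.39% and 1.55% of all probes. All 8 genes had a lower mean after 7.4 Gy than after 6.7 Gy on day 7, by 0.18 to 1.21, where 54.85% of all genes tested were lower. The 1 member that passed without adjustment was TNFRSF17 (-1.21, 95% interval -2.41 to -0.0076, limma adjusted p = 0.992). These differences between doses depended on replicate 4 of the 7.4 Gy day 7 group, which holds the TNFRSF17 value not well above background. Without it TNFRSF17 differed by -0.57, DERL3 by 0.096 and the other 6 genes by -0.36 to -0.076. Between days 12 and 4, and between days 12 and 7, 0 of 8 members were called, where 2.75% and 0.114% of all probes were. At an unadjusted p with the fold change it was 1, 0 and 0 members for days 7 and 4, 12 and 4, and 12 and 7, against 1.37%, 3.48% and 1.06% of all probes. The intervals leave room for changes of over 2-fold in MZB1, whose difference between days 12 and 7 was 0.74 (95% interval -0.39 to 1.87).

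Arrays lay on 6 slides of 4, and each of 4 slides held 1 control. Animals on the slides without a control, among them replicate 3 of 7.4 Gy day 4, are in none of the pairs below. TNFRSF17 was below the control of its own slide in 4 of 4 day 4, 6 of 6 day 7 and 2 of 2 day 12 animals, with differences of -0.64 to -4.49. All these animals lay below every control, so these counts were fixed in advance, and the -4.49 rests on the value not well above background. PRDM1 was lower in 6 of 6 day 7 and 2 of 2 day 12 animals, which also lay below all controls, and in 2 of 4 day 4 animals. MZB1 was lower in all 12 such pairs, with differences of -0.13 to -4.66, and its largest gaps were on the slide of control replicate 4. Other members went both ways: DERL3 was lower in 2 of 4 day 4, 6 of 6 day 7 and 2 of 2 day 12 pairs, and JCHAIN and XBP1 in 3 of 4, 6 of 6 and 2 of 2. IRF4 was lower in 4 of 4, 5 of 6 and 2 of 2, and SDC1 in 4 of 4 day 4, 2 of 6 day 7 and 0 of 2 day 12 pairs. With the slide as a block, the change on day 7 after 7.4 Gy was -3.24 in TNFRSF17 (limma adjusted p = 0.026) and -1.18 in PRDM1 (limma adjusted p = 0.063). TNFRSF17 was then also called on day 4 after 7.4 Gy (-2.30, limma adjusted p = 0.036). No array of days 7 or 12 shared its place on the slide with a control or a day 4 array. In comparisons of these days with control or day 4, place and group therefore cannot be told apart.

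The product of plasma cells, immunoglobulin, was read from 95 probes whose descriptions name an immunoglobulin chain, since no chain gene had a tested probe under its symbol. Of these, 83 were tested and 0 were called in any of the 6 comparisons. Their median change was -0.75, -0.87, -0.73, -1.40, -0.91 and -0.62 (6.7 and 7.4 Gy on day 4, then day 7, then day 12), and 80, 81, 79, 82, 77 and 73 of the 83 were below 0. These probes target similar sequences and share the same animals, so their number is not a number of independent measurements. Per animal, the median over the probes was -1.16, -0.92, 0.39 and 1.57 in the controls relative to their mean, a spread as wide as the changes. On day 7 after 7.4 Gy it was -0.76, -0.94, -1.46 and -2.41, and only replicates 3 and 4 lay below all controls. Without control replicate 4 and replicate 4 of that group, the median change there was -0.53, and without control replicate 4 the other medians were -0.19 and -0.27 on day 4, -0.17 on day 7 after 6.7 Gy, and -0.31 and -0.09 on day 12.

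**Figure D3:**
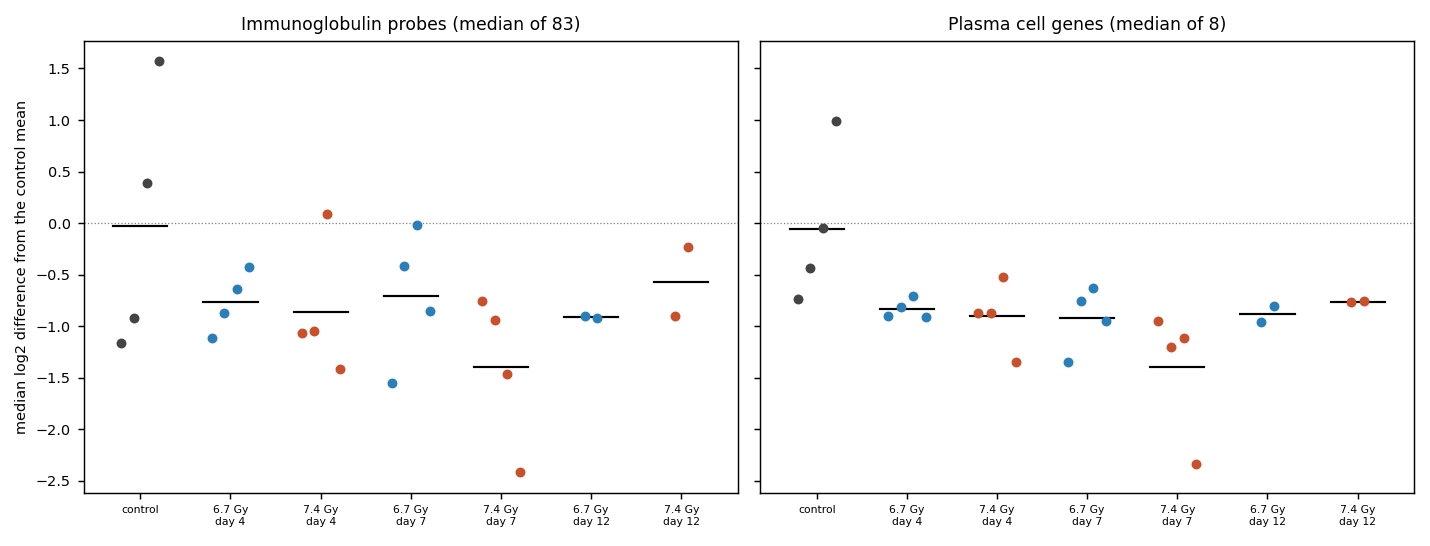
Median over 83 immunoglobulin probes (left) and over the 8 plasma cell genes (right) in every animal (y axis: log2 difference from the mean of the controls; x axis: group; bars: group means). Control replicate 4 is the highest animal in both panels, at 1.57 and 0.99, and replicate 4 of the 7.4 Gy day 7 group the lowest, at -2.41 and -2.33.

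The 5 probes for the alpha heavy chain, that of IgA, had median changes of -1.70 and -0.74 on day 4, -0.52 and -2.06 on day 7, and -1.28 and -1.09 on day 12, and none was called. Control replicate 4 set much of their size: without it the medians were -1.01 and 0.0092 on day 4, 0.090 and -1.18 on day 7, and -0.72 and -0.56 on day 12, so they turned sign on day 4 after 7.4 Gy and on day 7 after 6.7 Gy. With replicate 4 of 7.4 Gy day 7 left out too, the median in that group was -0.68. Their group means were unlike those of the light chains in single animals. Replicates 3 and 4 of 6.7 Gy day 4 were at -3.80 and -2.31 over the alpha chain probes but at -0.38 and -0.26 over the kappa chain probes. The alpha chain probes are described by the allele they were made from, and the part of allele differences between animals was not tested.

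Among animals of the same group, some members varied together and others did not. With group means removed, Pearson's r over the 24 arrays was 0.91 between MZB1 and DERL3, 0.83 between TNFRSF17 and DERL3, 0.78 between IRF4 and DERL3 and 0.75 between XBP1 and MZB1. Against the median of the immunoglobulin probes r was 0.94 for MZB1, 0.93 for DERL3, 0.81 for IRF4, 0.79 for TNFRSF17 and 0.62 for XBP1. It was 0.35 for JCHAIN, 0.25 for SDC1 and -0.03 for PRDM1. Spearman's rho gave 0.91, 0.86, 0.66, 0.77, 0.41, 0.28, 0.23 and 0.00 for the same genes in the same order. These are descriptions over arrays that share slides and an array scale, and they carry no test.

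Leaving out controls weakened some of these relations and not others. Without the 2 arrays farthest from the middle in immunoglobulin, control replicates 4 and 1, r was 0.90 for MZB1, 0.89 for DERL3, 0.80 for TNFRSF17, 0.67 for IRF4, 0.42 for JCHAIN and 0.41 for XBP1. The group means removed for this were those of all 24 arrays, so the remaining controls kept an offset set by the 2 left out. Over the irradiated animals alone, whose group means hold no control, r was 0.89, 0.93, 0.86, 0.61, 0.52 and 0.32 for the same genes. Between JCHAIN and MZB1, r with group means removed was 0.16 over the 24 arrays and 0.25 without control replicate 4 and replicate 4 of 7.4 Gy day 7. With the same 2 left out, r of PRDM1 ran from -0.47 with JCHAIN and -0.42 with IRF4 to 0.087 with SDC1, and r among MZB1, DERL3, IRF4 and TNFRSF17 ran from 0.60 to 0.87. Here too the group means removed still included the 2 animals left out, so these r are not free of them.

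**Figure D4:**
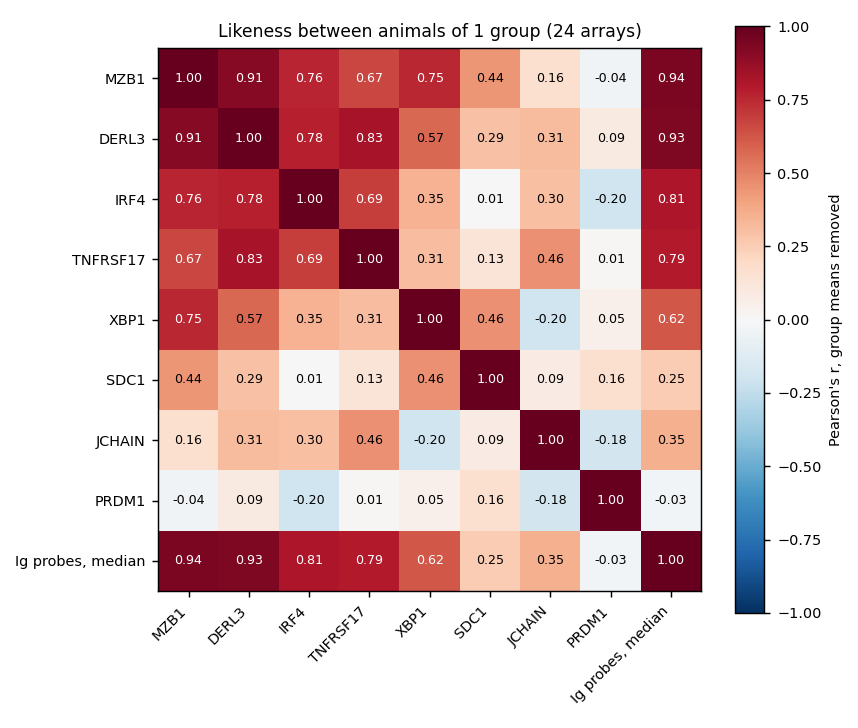
Pearson's r between plasma cell genes, and with the median of the immunoglobulin probes, over 24 arrays with group means removed (red: positive, blue: negative, values printed in the cells). MZB1, DERL3, IRF4 and TNFRSF17 have r of 0.67 to 0.91 with each other, whereas PRDM1 has r of -0.20 to 0.16 with the other 7 genes.

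Over all 24 arrays, groups included, the 5 other genes with the highest r to JCHAIN were NRG4 (0.73), PNOC (0.70), EOMES (0.67), the immunoglobulin lambda-like locus LOC100430606 (0.66) and ITGA4 (0.66). TNFRSF17, at 0.70, ranked among them, and the median over all genes was 0.01. With group means removed the closest were ZNF557 (0.83), LOC722487 (0.76), LOC711126 (0.75), KIF5C (0.73) and PHC3 (0.71), none of them in the first list.

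Further genes known in plasma cells had medians nearer 0 than those of the 8 members, a difference that was not tested. Of 21 listed, 15 were tested and 0 were called by limma, with median changes of -0.35, -0.48, -0.37, -0.50, -0.31 and -0.40, and of 37 genes for folding and stress in the endoplasmic reticulum 0 were called, with medians of -0.10, -0.27, -0.04, -0.24, -0.10 and -0.26. Without control replicate 4 and replicate 4 of 7.4 Gy day 7, the first list's medians were -0.17, -0.22, -0.23, -0.31, -0.22 and -0.10, and the second's were -0.037, -0.17, 0.010, -0.20, -0.046 and -0.19. The summed signal of the first list was 5.84 to 6.44 in the controls and 5.38 to 5.99 in the irradiated animals. Of these, replicate 3 of 7.4 Gy day 4 (5.99) lay within the control range and all others, up to 5.82, lay below it.

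Genes for the homing and support of mucosal plasma cells included a gene called lower in all 6 comparisons with control. Of 13 tested, 1, 1, 2, 2, 2 and 1 were called lower and 0 higher. CCR9, the receptor by which lymphocytes home to the small intestine, was lower in all 6 groups, by -1.67 and -1.68 on day 4, -2.0 and -2.40 on day 7 and -1.98 and -2.07 on day 12 (limma adjusted p = 9.1e-05 to 0.029). ITGA4, the alpha chain of the gut-homing integrin, was called lower on day 7 (-1.26 and -1.48) and on day 12 after 6.7 Gy (-1.41). Both are also expressed by T cells, whose 9 tested genes had median changes of -0.29 to -0.85. Without control replicate 4 and replicate 4 of 7.4 Gy day 7, the homing list had 1, 1, 2, 2, 0 and 0 genes called lower, so its day 12 calls were lost. The list's median change on day 12 was then -0.36 and -0.21, against -0.44 and -0.15 with all animals. The lost calls alone do not show that these genes were no longer lower.

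Genes of B cells, the precursors of plasma cells, were lower in part. Of 11 B cell genes tested, 2 were called lower in each day 4 group and on day 7 after 7.4 Gy. These were CD79B, the signalling chain of the B cell receptor (-1.29, -1.25 and -1.34), and VPREB3, a gene of B cell precursors. VPREB3 was well above background in 4 of 4 controls but in only 2, 1 and 1 of 4 animals of these groups, so no size is given for its change. Without control replicate 4 and replicate 4 of 7.4 Gy day 7, the counts were 0 on day 4 after 6.7 Gy and 1 in the other 2 groups. The B cell list summed to 2.24 to 2.98 in the controls, where replicate 4 was highest, and to 1.72 to 2.48 in the irradiated animals. Its median change was -0.58, -0.51, -0.49, -0.69, -0.06 and -0.37. On day 12 after 6.7 Gy the B cell median was thus near 0, while that of the 8 plasma cell genes was -0.91; this difference was not tested.

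**Figure D5:**
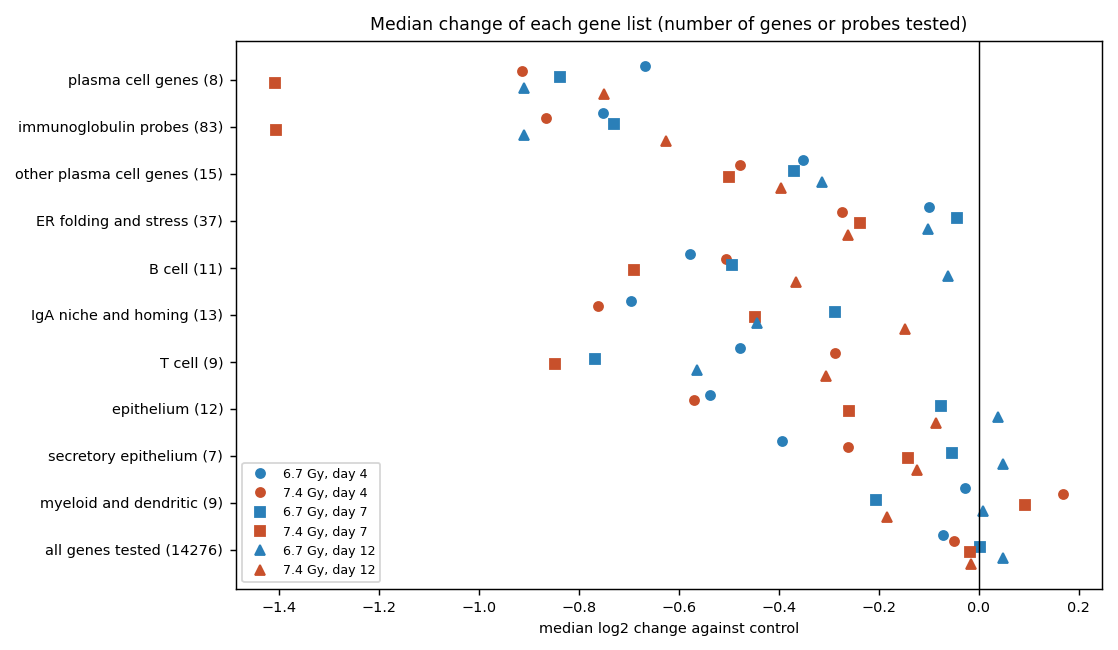
Median log2 change against control (x axis) of the 8 plasma cell genes, the immunoglobulin probes and the other lists (y axis, with the number tested; circles: day 4, squares: day 7, triangles: day 12; blue: 6.7 Gy, red: 7.4 Gy). The plasma cell and immunoglobulin medians lie between -1.41 and -0.62 in all 6 groups, and the median of all genes between -0.07 and 0.05.

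Single genes on the lists of other cells were called on day 4 as well. Of 12 epithelial genes tested, VIL1, a brush border protein, was called lower on day 4 at both doses (-1.32 and -1.27), and KRT20 after 6.7 Gy (-1.05). Of 7 genes of secretory epithelium, AGR2 (-1.12 and -1.61) and CLCA1 (-1.22 and -1.08) were lower on day 4. Of 9 myeloid and dendritic cell genes, FLT3 was lower on days 4 and 7, CLEC9A on day 7, and CD14 was higher on day 4 after 7.4 Gy (1.14, limma adjusted p = 0.011). FLT3 and CLEC9A were well above background in 4 of 4 controls but in only 1 or 2 of 4 animals of the groups called, so no size is given for them. Without the 2 animals named above, the secretory list had 0 and 1 genes called lower on day 4, and the myeloid and dendritic cell list 0 and 1, so that FLT3 was no longer called on day 4 after 6.7 Gy. The part of these shifts in the plasma cell values was not tested. The ileum list had 0 of 5 genes called in the 6 comparisons.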

How the data were processed

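Total RNA from ileum of 24 macaques (4, 4, 4, 4, 4, 2 and 2 in 7 groups) was hybridized to Agilent single-color arrays. The authors read the arrays with Feature Extraction, which per the file headers gives each spot a background-subtracted intensity; the deposited raw table holds the same intensities. In the authors' normalized table, log2 signals are shifted by the 75th percentile of the array and each probe is centred on its median, within 0.002 of the values computed here. Here, log2 of the processed intensity minus the 75th percentile over 43603 probes was used, from 43803 spots of an array. A probe was tested if it was flagged well above background in all animals of 1 group or more (36108; 30451 on all arrays).

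Tools were R 4.3.3, limma 3.58.1 and the data.table package, version 1.17.8. All 24 arrays entered 1 limma model of 7 group means; called means an adjusted p under 0.05 and at least 2-fold. The number of arrays limits the precision. The test was tried on simulated data, and the outcome is not given here. The members and lists were chosen with earlier results of these data known, and likewise the rule for named genes: every member, in other lists at most 5 called genes by size of change, and the 5 genes most like JCHAIN. Calls and medians of lists are descriptions, without a set test. Alternatives were normexp background correction (offset 50, on median spot signals, since mean signals are not in the files used here), quantile normalization, the authors' table, other filters, moderation with a trend, the methods' t-test, only the 2 groups compared, slide, slide position and replicate number as terms, the mean over probes, and leaving out each animal. Leaving out 2 animals together was added after seeing the data. For the day 12 arrays the labels' protocol names another day than titles and day fields; day 12 was used. No genome or sequence was used. One gene is not reported here.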

Additional observations from a re-analysis of the deposited data

Results flagged for a closer look

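Of 45 checks of 1 gene in 1 group of 4 animals (8 genes and the immunoglobulin median, 5 groups), 4 found an animal whose gap to the next, as a share of the group's range, was above Dixon's 95% critical value; chance gives about 1 in 20. TNFRSF17 in control replicate 4 was at -1.55, with the other controls between -3.22 and -3.07 (gap 0.912 of the range). JCHAIN in replicate 2 of 6.7 Gy day 7 was at 3.75, above 2.70 to 2.87 in the others (0.835). SDC1 in replicate 1 of 6.7 Gy day 4 was at -0.21, above -0.97 to -0.85 (0.837). XBP1 in replicate 2 of 7.4 Gy day 7 was at 4.18, above 3.23 to 3.34 (0.885).

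Among irradiated animals, levels differed between days for PRDM1, by -1.31 between days 7 and 4 and by -0.94 between days 12 and 4 (limma adjusted p = 8.4e-05 and 0.0048), and for SDC1, by 0.70 between days 12 and 4 (limma adjusted p = 0.012). The first of these also passed the 2-fold threshold and was called; the other two did not. All controls are labelled day 4, so a difference between days and a differing effect of irradiation cannot be told apart. No array of days 7 or 12 shared its place on the slide with a day 4 array, so place cannot be told apart from day either.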

How the results depend on the processing

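The median change of the 8 genes stayed below 0 in all 6 comparisons under every alternative run. On day 7 after 7.4 Gy it was -1.76 to -0.97 when 1 animal at a time was left out, and -0.80 without control replicate 4 and replicate 4 of that group, a pair chosen after seeing the data; 0 members were then called against control. The count of members called lower there (2) became 1 with normexp background correction and with the slide as a block. It was also 1 with probes above background on all arrays, where the TNFRSF17 probe was not tested and PRDM1 stayed called. By the methods' t-test and with only the 2 groups compared it became 0. With 1 animal left out it was 0 to 3: 0 without control replicate 4, and 3 without control replicate 1, where JCHAIN and MZB1 joined TNFRSF17. Without irradiated replicate 2, XBP1 took the place of PRDM1 at a count of 2. On day 4 after 7.4 Gy the count (0) became 1 with the slide as a block and 0 to 1 with 1 animal left out: 1 without control replicate 1 or 2 (MZB1) or without irradiated replicate 3 (TNFRSF17). Normexp correction moved the TNFRSF17 change on day 7 after 7.4 Gy from -2.97 to -1.21 (limma adjusted p = 0.033). Leaving out 1 of 2 day 12 animals assumes that the other varies like the remaining groups.

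Replicate numbers did not pair animals: deviations from group means correlated by -0.26 to 0.23 over 40 same-numbered pairs, 10 of them over 0.1. With a replicate block, PRDM1 between days 12 and 4 passed (-1.02, limma adjusted p = 0.00898), so the count was 1 in place of 0; it was 0 to 1 with 1 animal left out. The replicate block changed no other call.

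Some signs turned: SDC1 on day 12 after 7.4 Gy (0.08) was -0.015 with normexp, -0.030 with the slide as a block and -0.0019 to 0.18 with 1 animal left out, DERL3 between doses on day 7 (-0.36) was -0.62 to 0.10, and IRF4 between days 7 and 4 (0.05) was -0.079 to 0.18. Of 488 alternative values for 35 other differences between doses or days, 32 had the opposite sign, the largest 0.61 in size, and 0 changed a call. The cause of these shifts was not tested. Against control, array position could be fitted for day 4 only. It changed no call there, but 0 members were called without it, so no call could be lost. With it, the limma adjusted p of the members on day 4 after 7.4 Gy ran from 0.401 to 0.761. TNFRSF17 and IRF4 are the dimmest members, and 1 TNFRSF17 value was not well above background.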
